A study of Mus musculus with 4 samples.

Results

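Of 26614 genes named as the nearest gene of an accessible region in RAW264.7 cells, 77 had 20 or more such regions. They were chosen by counting regions per gene name in the deposited value tables, without regard to group, and keeping every region of each gene that reached 20. The 77 genes are 0.289% of the named genes and hold 1926 of 80929 regions (2.38%), while the median gene had 2. A group of 15 genes stood exactly at 20 regions, among them Ank, Runx1, Otulinl and Jmjd1c, and 21 genes just missed with 19, among them Abr, Arhgap24, Macf1 and Tcf12. The number of regions rests on peaks called in these same libraries, so it describes the choice of genes and is not a finding.

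RAW264.7 is a mouse macrophage-like cell line. The assay was ATAC-seq: a transposase cuts DNA that is not wrapped up in packed chromatin and tags the cut ends, so reads pile up where chromatin is open. Of the 4 libraries, 2 were titled Gel and 2 CuNZ@Gel, the latter named as a nanozyme hydrogel in the series title, and all came from cells cultured for 48 h. The treatment text names CuNZ@Gel for every sample, so the titles alone tell the Gel cells apart. No label states that replicates were separate cultures, and p-values therefore reflect only how much these libraries vary, possibly for technical reasons.

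Promoters are the sites where transcription starts, and enhancers are open stretches, often in introns or far from the start, that transcription factors bind to raise or lower a gene's output. A gene with a long body or wide flanks can carry many such stretches, and in macrophages lineage factors and signal-driven factors may occupy different ones of them. A nearest-gene name records distance only and does not say which gene a region acts on.

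To show what lies just upstream of genes with opposite patterns in the deposited values, the 250 bases before the first listed start are printed. They are given for Iqsec1 and Mitf, where many regions were called higher in CuNZ@Gel, and for Sgms1 and Otulinl, where many were called lower. They are RefSeq sequences on GRCm38.p6, a different build from the GRCm39 of the regions, at chr6:90810124-90810373 (minus strand), chr6:97806808-97807057 (plus strand), chr19:32388513-32388762 (minus strand) and chr15:27681543-27681792 (minus strand), read 5′ to 3′ along the gene. Capitals mark the letters GGGCGG, known as a GC box, the motif CCAAT, or the C/EBP-type motif TTGCNNAA, each on either strand.
Iqsec1: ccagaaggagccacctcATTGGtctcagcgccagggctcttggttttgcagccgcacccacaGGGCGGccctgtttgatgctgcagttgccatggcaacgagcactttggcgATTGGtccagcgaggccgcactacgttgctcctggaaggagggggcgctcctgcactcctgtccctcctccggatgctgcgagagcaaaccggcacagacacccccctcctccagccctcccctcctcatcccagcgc
Mitf: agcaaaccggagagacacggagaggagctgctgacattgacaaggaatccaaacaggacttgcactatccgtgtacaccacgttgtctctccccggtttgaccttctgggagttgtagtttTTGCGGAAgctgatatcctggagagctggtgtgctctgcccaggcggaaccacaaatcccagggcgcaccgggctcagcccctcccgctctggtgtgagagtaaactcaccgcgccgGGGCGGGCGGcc
Sgms1: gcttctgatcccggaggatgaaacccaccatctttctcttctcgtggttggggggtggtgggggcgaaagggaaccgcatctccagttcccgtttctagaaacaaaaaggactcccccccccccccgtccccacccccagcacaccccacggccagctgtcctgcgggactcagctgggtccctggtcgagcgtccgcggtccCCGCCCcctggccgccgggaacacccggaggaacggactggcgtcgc
Otulinl: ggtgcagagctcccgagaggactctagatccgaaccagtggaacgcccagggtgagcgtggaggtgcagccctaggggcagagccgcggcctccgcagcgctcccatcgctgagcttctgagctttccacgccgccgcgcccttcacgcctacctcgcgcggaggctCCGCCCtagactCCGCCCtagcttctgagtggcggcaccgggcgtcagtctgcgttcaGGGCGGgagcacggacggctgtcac

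Iqsec1 held 1 GC box and 2 CCAAT motifs, Mitf 2 overlapping GC boxes and 1 C/EBP-type motif, Sgms1 1 GC box and Otulinl 3. Over the 64 of the 77 genes with a promoter in the table, the GC box was present in 40 (62.5%), against 32.9% of 27025 promoters of the same length. The median GC content was 64.8% against 52% and the median number of CG dinucleotides 17.5 against 6. The CCAAT motif was in 25% against 34.5%, the E-box CACGTG in 9.38% against 6.05%, and the AP-1 motif TGANTCA in 4.69% against 6.87%. The C/EBP letters were in 3.13% against 9.55%, the ETS core ACTTCCG in 1.56% against 4.98%, and GAGGAAGT, of the PU.1 type, in 3.13% against 2.44%. The CRE TGACGTCA was in 0 of the 64 and in 1.62% of all promoters. All motifs were searched on both strands; both ETS motifs share the core GGAA. The GC box is itself made of G and C, and the promoters were not matched on composition. A match is a description, not a bound site.

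Gel replicate 1 had 18843489 reads falling in regions and replicate 2 had 17914779, while CuNZ@Gel replicate 1 had 7440949 and replicate 2 had 10236704. Pairs of values below give replicate 1 first. Reads in regions per unit of the background pileup in the peak lists were, in units of 1000000 reads, 18.8 and 18.6 for Gel, and 6.37 and 8.53 with CuNZ@Gel, so the groups differ in signal over background as well as in treatment, and these cannot be told apart. Values are given as RPM, the reads in a region per 1000000 after the authors' library scaling, and changes are CuNZ@Gel minus Gel on the log2(RPM + 1) scale, which understates changes of weak regions. Regions near 12 of 15 macrophage markers summed to 1606 and 1663 RPM in Gel and 1216 and 1244 in CuNZ@Gel; Fcgr3, Tyrobp and Laptm5 had no region. All 5 T cell markers had a region, summing to 130 and 132 RPM in Gel and 101 and 94.8 in CuNZ@Gel. Endothelial markers (3 of 3 with a region) summed to 49.98 and 48.4 RPM in Gel and 55.8 and 65.2 in CuNZ@Gel, fibroblast markers (4 of 5) to 43.0 and 41.5 and to 49.2 and 47.1, and neuronal markers (2 of 3) to 17.6 and 16.6 and to 21.9 and 19.4. Epithelial (3 of 4) and B cell markers (3 of 4) summed to between 8.16 and 17.5 in each library, and 0 of 3 muscle markers had a region. The part of these marker levels in the results was not tested.

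The 1926 regions lay on 19 chromosomes, and the loci ran from 97.8 kb (Gm14010) to 1690 kb (Dlg2), with a median of 241 kb. Pde4d, which encodes a phosphodiesterase that breaks down cAMP, had the most regions, 48. Next came Foxp1, a forkhead transcription factor, with 47, Nav2, a microtubule-associated protein, with 43, and Elmo1, a partner of Dock proteins in Rac activation during engulfment, with 38. Tns3, a tensin of focal adhesions, also had 38. Vav3 had 33, and Pid1 and Septin9, a filament-forming GTP-binding protein, had 32 each. The regions were close to the rest in width (median 490.5 bases against 485 over all regions) and in level (median mean log2 value 2.74 against 2.56). Together they took 2.05% of region reads in each Gel library and 2.28% and 2.31% in the CuNZ@Gel libraries.

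Regions called higher and regions called lower were both found in nearly all of these genes, which their many regions make likely. Of the 1865 regions with enough reads to test (96.8%), 483 were called higher (25.9%) and 337 lower (18.1%) in CuNZ@Gel by limma with Benjamini-Hochberg adjustment over all 77014 regions. The background over all regions was 21.2% higher and 21.9% lower, 43.1% in either direction, against 44.0% here. The median change was 0.06, against -0.00 over all regions. The groups did not overlap in 1323 of the 1865 regions (70.9%, background 68.3%). At least 1 region higher and at least 1 lower was found in 73 of the 77 genes (94.8%). The same held in 596 of 800 genes with 10 to 19 regions (74.5%), which have fewer regions in which to find both. Macroh2a3, Utrn, Gcnt1 and Tmem135 had regions called higher only, and no gene had regions called lower only. On the background scale no gene had higher calls only and 23 had lower calls only, and these 4 genes had 6, 8, 14 and 12 regions called lower. Gcnt1 also had 1 region called lower with the trend of change with level removed.

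**Figure D1:**
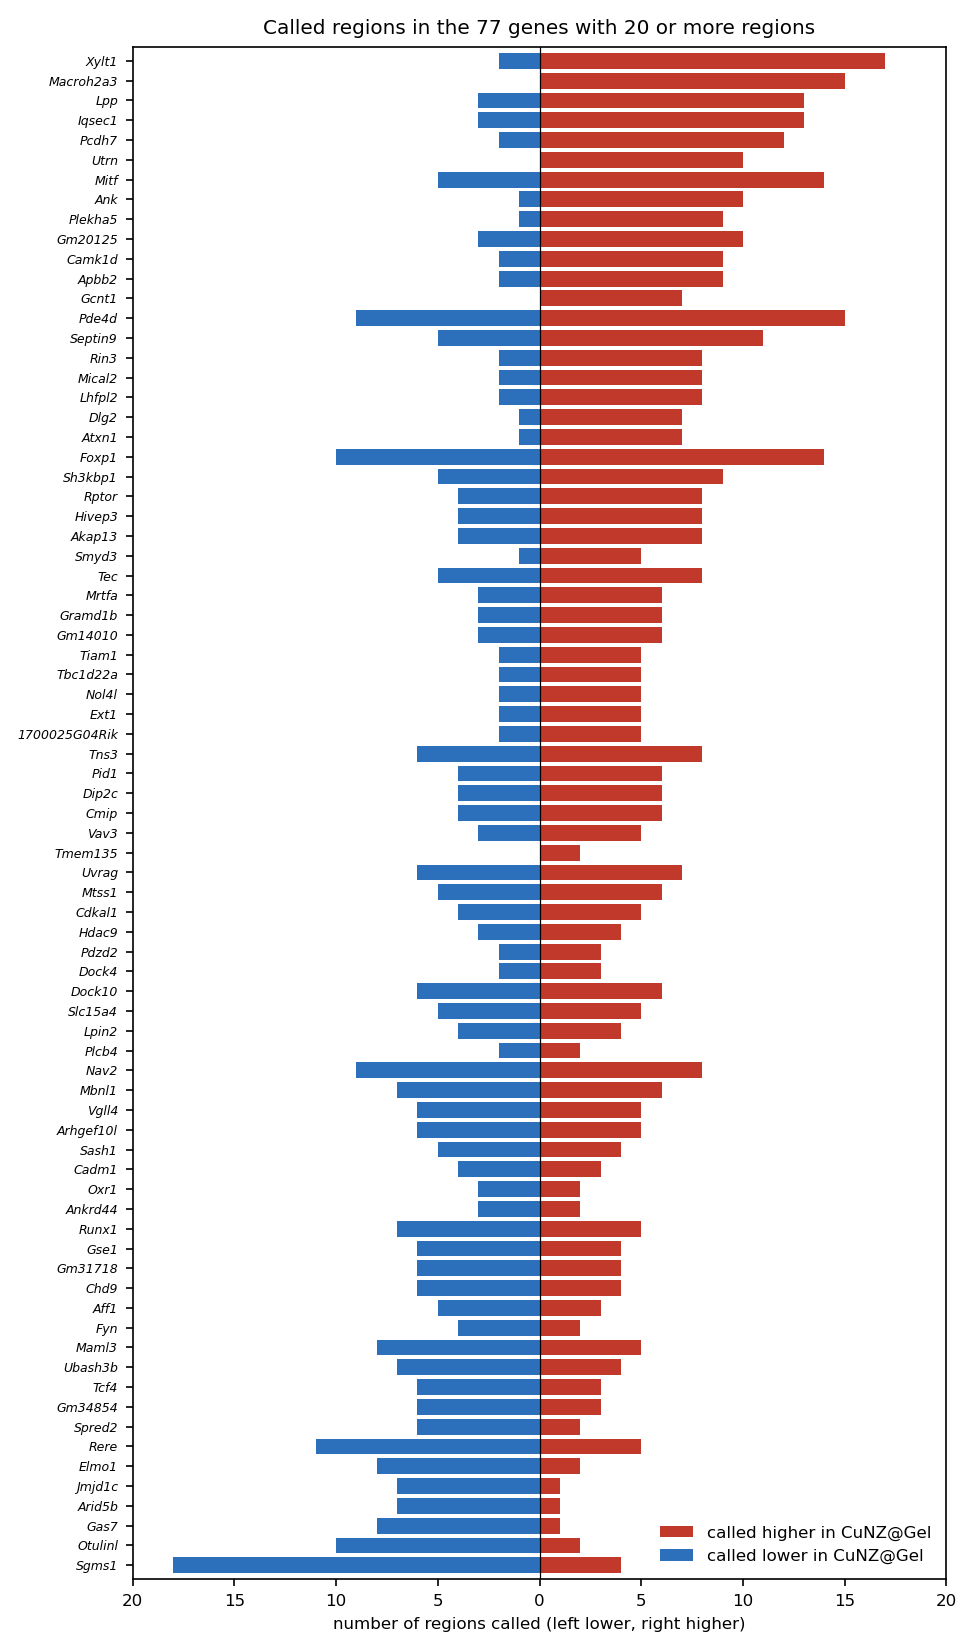
Number of regions called higher (right, red) and lower (left, blue) in CuNZ@Gel for each of the 77 genes, ordered by the difference of both counts; limma adjusted p under 0.05. Bars stand on both sides of 0 in 73 genes, from Xylt1 (17 higher, 2 lower) at the top to Sgms1 (4 higher, 18 lower) at the bottom.

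The split depended on how libraries were set to a common scale. With the trend of change with level removed by cyclic loess, 467 regions were higher and 251 lower, against backgrounds of 18.8% and 13.8% (32.6% in either direction), and 72 genes held both. With reads in regions alone as the total, 670 were higher and 164 lower (backgrounds 30% and 11.9%, 41.9% in either direction) and 67 genes held both. With the background pileup as the scale, 112 were higher and 1097 lower (4.85% and 60.6%, 65.5% in either direction), and 54 genes held both. The median change over all regions moved from -0.00 to -0.05, 0.22 and -0.82 on these 3 scales. Each scale left most of the 77 genes with calls in both directions. Counting only regions called the same way on the deposited scale and with the trend removed, 391 were higher (20.97%, against 15.8% of all regions) and 200 lower (10.7%, against 10.9%), and 68 genes held both. Adding the background scale left 110 higher (5.90%, against 4.67%) and the 200 lower, with 47 genes holding both. That scale moved changes downward, and all 8362 such lower calls over all regions also stayed. Keeping the 200 is therefore no added support for them.

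Regions of 1 gene moved together somewhat more often than regions of different genes. Of 4632 pairs of called regions within a gene, 2678 had the same direction (57.8%), against 51.4% of pairs from different genes of the 77. Removing the trend gave 61.6% and 54.4%. On the background scale both were close, 83.5% and 83.2%. Genes with 10 to 19 regions gave 58.6% within a gene and 50.2% between genes on the deposited scale. Genes with 2 to 9 gave 60.9% and 50.01%. With the trend removed these shares were 60.2% and 51.6% for 10 to 19 regions, and 65.3% and 51.3% for 2 to 9. With region totals they were 69.2% and 63.8%, and 70.2% and 60.8%, against 72.4% and 68.3% in the 77 genes. On each of these scales the within-gene share stood least above the between-gene share in the 77 genes. Pairs share regions and libraries, so these shares are descriptions with no test.

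Closeness along the chromosome went with agreement in direction. Among pairs with centres under 5 kb apart, 75.9% of 158 had the same direction. The share was 60.9% of 729 pairs at 5 to 25 kb, 57.1% of 1873 at 25 to 100 kb and 55.8% of 1872 over 100 kb. After removing the trend the shares were 75%, 66.5%, 60.03% and 59.9%. Genes with 10 to 19 regions gave 74.4%, 59.3%, 55.4% and 58.7% over the same distances. Between a called region and the next called region of the gene, 60.6% of 743 pairs matched.

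**Figure D2:**
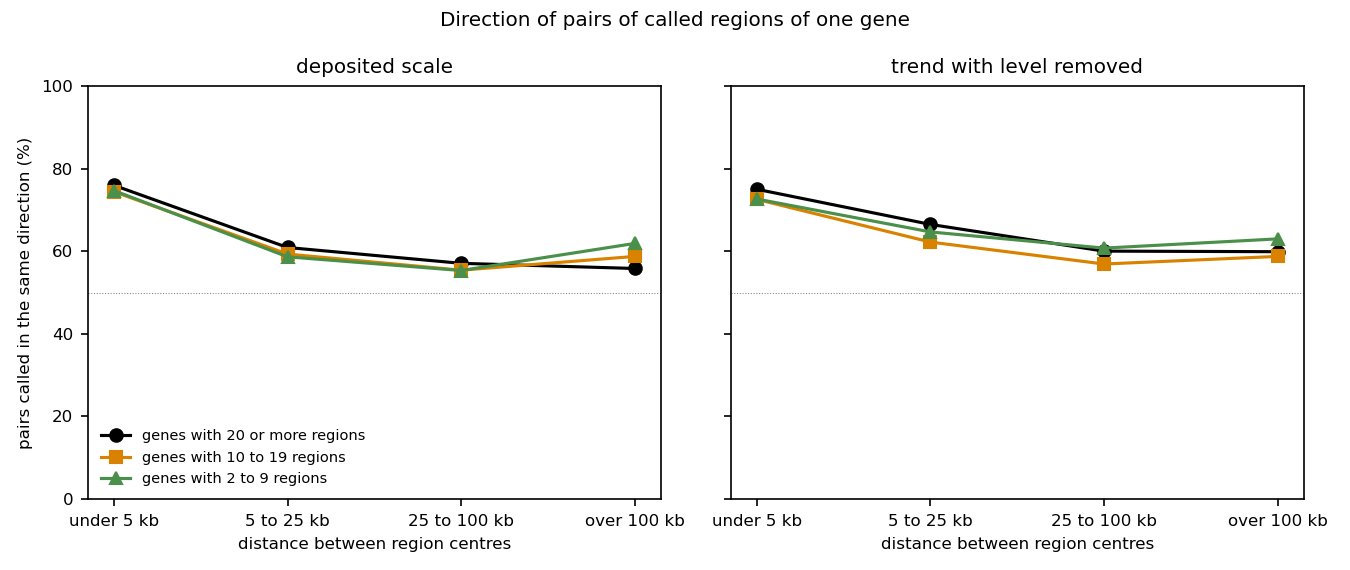
Share of pairs of called regions of 1 gene with the same direction (vertical axis, %) by the distance between their centres (horizontal axis), for genes with 20 or more, 10 to 19 and 2 to 9 regions, on the deposited scale (left) and with the trend with level removed (right); the dotted line marks equal numbers of same and opposite pairs. In the 77 genes the share goes from 75.9% under 5 kb to 55.8% over 100 kb on the left; over 100 kb it is 58.7% for genes with 10 to 19 regions and 61.9% for genes with 2 to 9.

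Opposite calls could also lie next to each other. The shortest gap between a region called higher and a region called lower had a median of 5.13 kb over the 73 genes. Of these 73 pairs, 29 kept both calls with the trend removed and 13 on the background scale; of the 20 closest, 4 and 1 did. Calls made with the trend removed gave a median gap of 7.34 kb over 72 genes. In Gm31718, a predicted gene, 773 bases separated chr8:127645986-127646472 from chr8:127647246-127647920. The first held 3.21 and 3.53 RPM in Gel and 15.4 and 20.3 in CuNZ@Gel, a change of 2.10 ± 0.18 (SE, n = 2 per group; limma adjusted p = 1.50e-13). The second held 14.8 and 16.0 RPM in Gel and 6.91 and 8.97 in CuNZ@Gel, a change of -0.88 ± 0.16 (limma adjusted p = 1.18e-05). Both calls held with the trend removed (2.06 and -0.85). The pair was named after its values were seen. The closest pair of all, 170 bases apart in Tbc1d22a, lost its lower call with the trend removed (0.13, limma adjusted p = 0.189). In Dlg2 the nearest opposite regions were 964 kb apart.

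Direction went with how strong a region was within its gene. Regions were ranked by RPM, not divided by width. The strongest region of each gene was called lower in 55 of 77 genes and higher in 6, with a median change of -0.51, while the other 1788 regions were higher in 477 and lower in 282, with a median of 0.08. Across the regions of a gene, Spearman's rho between mean level and change was negative in 73 of 77 genes (median -0.40, range -0.74 to 0.22; computed over the regions of a gene, all from the same 4 libraries), and positive in Pcdh7, Dlg2, Plekha5 and Tiam1. Among the weakest 25% of all regions by level, 113 of 420 regions of these genes were higher (26.9%, against 24.96% over all regions) and 8 lower (1.90%, against 1.45%); among the strongest 25%, 73 of 469 were higher (15.6%) and 226 lower (48.2%). Over all regions the strongest 25% had 9.88% higher and 64.0% lower.

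With the trend removed by loess, the strongest region was higher in 23 genes and lower in 19, and rho was negative in 36 of 77 genes (median 0.01). On the background scale it was lower in 72 genes and higher in 0. Genes with 10 to 19 regions had a negative rho in 666 of 798, with a median of -0.33. The genes whose strongest region was higher on the deposited scale were Lhfpl2 (0.78), Dip2c (0.34), Iqsec1 (0.48), Smyd3 (0.90), Rin3 (1.005) and Plekha5 (0.83).

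**Figure D3:**
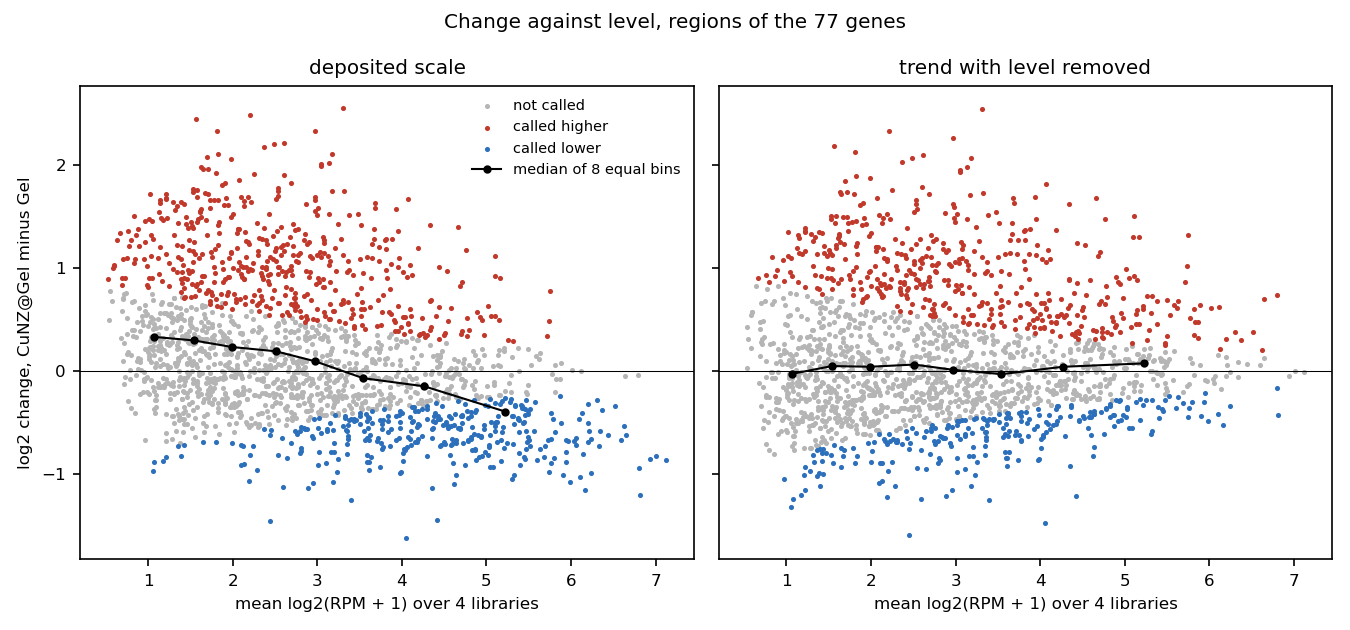
Log2 change, CuNZ@Gel minus Gel (vertical axis), against mean log2(RPM + 1) over the 4 libraries (horizontal axis) for the 1865 tested regions of the 77 genes, on the deposited scale (left) and with the trend removed (right); the black line joins the medians of equal-sized bins. On the left weak regions lie mostly above 0 and strong ones below, and on the right the line stays near 0.

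Genes with the greatest share of regions called higher were Macroh2a3 (15 of 24, 62.5%, with 0 lower), Xylt1 (17 of 28, 60.7%, 2 lower), Iqsec1 (13 of 24, 54.2%, 3 lower), Mitf (14 of 28, 50%, 5 lower) and Ank (10 of 20, 50%, 1 lower). Xylt1 starts the sugar chains of proteoglycans, Iqsec1 activates Arf GTPases, Mitf is a transcription factor of the osteoclast and pigment cell lineages, and Ank takes part in pyrophosphate export. Without CuNZ@Gel replicate 2, Macroh2a3 had 1 region called lower and Ank 2. Without Gel replicate 2, Xylt1 had 1 lower, and Mitf had 8 higher and 2 lower. Without Gel replicate 1, Mitf had 9 higher and 3 lower, and without CuNZ@Gel replicate 2 it had 3 lower.

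The regions given with coordinates for these genes are the largest changes of their gene among those whose groups do not overlap. The largest rise at Macroh2a3 was at chr15:62172949-62173285, with 0.291 and 0.928 RPM in Gel and 4.37 and 7.20 in CuNZ@Gel (change 2.07 ± 0.28, limma adjusted p = 3.21e-08). At Xylt1 it was at chr7:117117187-117117400, with 0.291 and 0.247 RPM in Gel and 4.85 and 7.11 in CuNZ@Gel (2.44 ± 0.28, limma adjusted p = 5.74e-10). Both regions were close to empty in Gel. At Iqsec1, chr6:90678293-90678930 held 2.74 and 3.47 RPM in Gel and 22.9 and 23.1 in CuNZ@Gel (2.55 ± 0.17, limma adjusted p = 5.62e-17). At Mitf, chr6:97929672-97930158 held 2.16 and 1.55 RPM in Gel and 10.7 and 13.8 in CuNZ@Gel (2.21 ± 0.22, limma adjusted p = 4.33e-12). At Ank, chr15:27375495-27376008 held 2.51 and 3.96 RPM in Gel and 10.2 and 13.7 in CuNZ@Gel (1.62 ± 0.21, limma adjusted p = 5.43e-09). All 5 calls held on the loess and background scales. Over all regions of these genes, however, calls on the background scale were more often lower than higher. There Macroh2a3 had 4 higher and 6 lower, Xylt1 2 and 12, Iqsec1 3 and 8, Mitf 4 and 13, and Ank 1 and 7.

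Summed over all its regions, Macroh2a3 held 231 and 223 RPM in Gel and 309 and 332 in CuNZ@Gel, a change of 0.49 ± 0.04 (limma adjusted p = 1.34e-08 over 25900 genes). Ank held 255 and 257 against 332 and 352 RPM (0.42 ± 0.04, limma adjusted p = 4.39e-08). Iqsec1 (0.32 ± 0.04) and Xylt1 (0.27 ± 0.04) also rose as sums. Mitf did not pass the test, with 295 and 299 RPM in Gel and 278 and 281 in CuNZ@Gel (-0.087 ± 0.039, limma adjusted p = 0.0608), although it had more regions called higher than lower; voom put it past the threshold (limma adjusted p = 0.0424). Its sum rose by 0.135 after removing the trend (limma adjusted p = 0.00614). On the background scale the sums of Macroh2a3 (-0.56), Ank (-0.64), Iqsec1 (-0.74) and Xylt1 (-0.79) were below 0.

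Genes with the greatest share called lower were Sgms1 (18 of 31, 58.1%, with 4 higher), Otulinl (10 of 20, 50%, 2 higher), Maml3 (8 of 20, 40%, 5 higher), Rere (11 of 31, 35.5%, 5 higher) and Jmjd1c (7 of 20, 35%, 1 higher). Runx1 and Ubash3b, also at 35%, tied with Jmjd1c, which was taken by name. With the trend removed Maml3 had more regions called higher (6) than lower (4). Sgms1 then had 6 higher and 11 lower, Otulinl 4 and 6, Rere 3 and 9, and Jmjd1c 1 and 6. Sgms1 makes sphingomyelin from ceramide, Maml3 is a coactivator of Notch target genes, Rere is an atrophin-family cofactor and Jmjd1c is a JmjC-domain protein. Without Gel replicate 2, Sgms1 had 11 regions called lower and Rere 7. Without Gel replicate 1 Rere had 3 higher, and without CuNZ@Gel replicate 1 it had 2 and Jmjd1c had 3. Without CuNZ@Gel replicate 2 Jmjd1c had 0 higher.

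The largest fall at Sgms1 was at chr19:32248828-32249396, with 26.5 and 29.8 RPM in Gel and 7.88 and 9.15 in CuNZ@Gel (change -1.61 ± 0.14, limma adjusted p = 1.59e-13). At Rere, chr4:150572588-150573134 held 35.2 and 33.4 RPM in Gel and 13.1 and 11.02 in CuNZ@Gel (-1.44 ± 0.13, limma adjusted p = 2.35e-13). At Otulinl, chr15:27808645-27809568 held 11.3 and 9.40 RPM in Gel and 5.09 and 3.64 in CuNZ@Gel (-1.09 ± 0.20, limma adjusted p = 8.81e-06). At Jmjd1c, chr10:66951001-66951937 held 47.8 and 43.8 RPM in Gel and 21.6 and 25.6 in CuNZ@Gel (-0.93 ± 0.11, limma adjusted p = 4.48e-10). At Maml3, chr3:52009234-52010741, the strongest region of the gene, held 156 and 151 RPM in Gel and 77.8 and 80.9 in CuNZ@Gel (-0.94 ± 0.07, limma adjusted p = 8.75e-17). The Maml3 fall was -0.17 after removing the trend (limma adjusted p = 0.041).

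As sums, Jmjd1c held 291 and 302 RPM in Gel and 201 and 213 in CuNZ@Gel (-0.52 ± 0.04, limma adjusted p = 8.52e-09). Sgms1 held 723 and 738 against 521 and 532 RPM (-0.47 ± 0.03, limma adjusted p = 1.30e-10). Maml3 (-0.48 ± 0.04), Rere (-0.45 ± 0.04) and Otulinl (-0.43 ± 0.04) fell as well. Removing the trend left the Maml3 sum at 0.0085 (limma adjusted p = 0.865), while Jmjd1c (-0.33), Rere (-0.23), Sgms1 (-0.11) and Otulinl (-0.10) still fell.

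**Figure D4:**
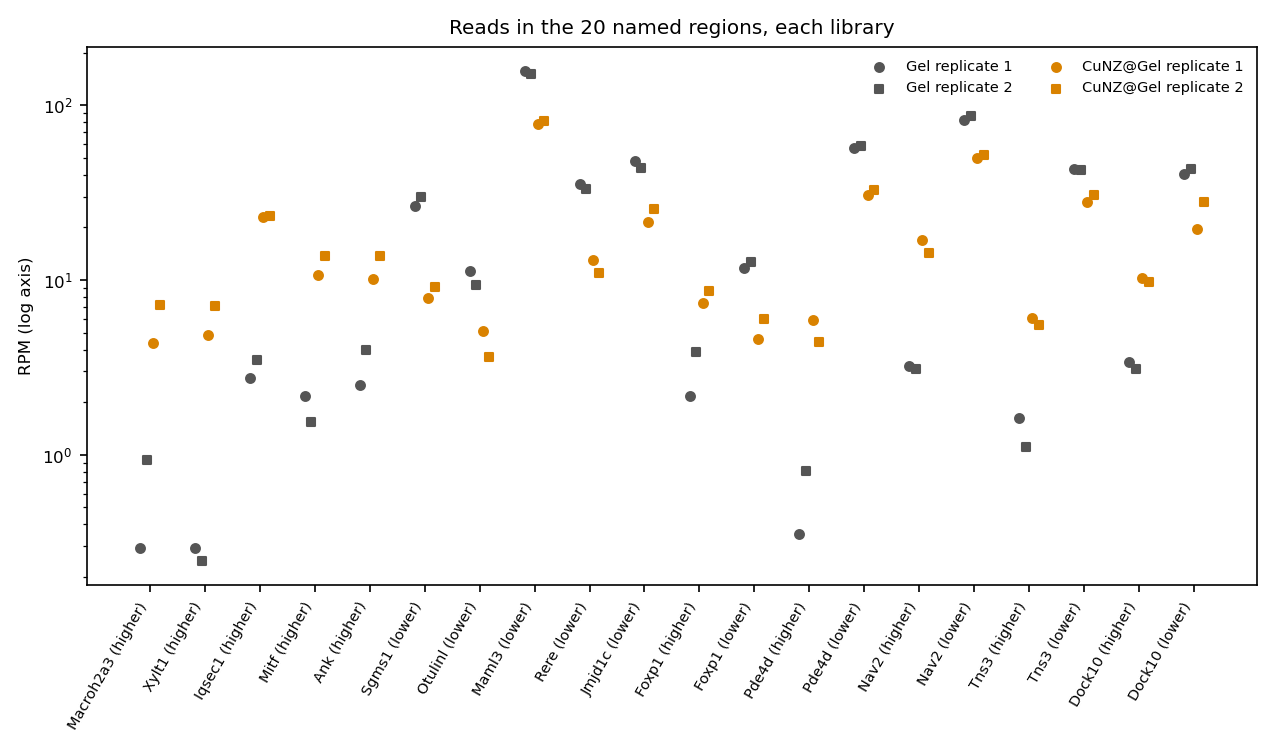
RPM (log axis) in each library for the 20 regions named by the selection rule, Gel in grey and CuNZ@Gel in orange, replicate 1 as circles and replicate 2 as squares; the direction of the call stands in brackets beside each gene. Regions were chosen so that groups do not overlap, and the rises start between 0.247 and 3.96 RPM in Gel while the falls start between 9.40 and 156.

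Foxp1, Pde4d, Nav2, Tns3 and Dock10 were the genes named for having many regions on their less frequent side; Mbnl1 and Uvrag, with 6 there, tied with Tns3 and Dock10 and were left out for having fewer regions in all. Foxp1 had 14 higher and 10 lower of 46, Pde4d 15 and 9 of 47, Nav2 8 and 9 of 40, Tns3 8 and 6 of 36, and Dock10 6 and 6 of 24. With the trend removed Tns3 had 11 higher and 1 lower. On the background scale Pde4d had 8 higher and 27 lower, Nav2 4 and 25, and Tns3 2 and 21. Foxp1 (0 and 26) and Dock10 (0 and 16) had only lower calls there. Some counts on the deposited scale rested on single libraries. Foxp1 had 7 higher without either Gel replicate. Without Gel replicate 1, Pde4d had 5 lower, Nav2 4 and Tns3 3. Without Gel replicate 2, Nav2 had 5 lower, and Tns3 had 5 higher and 3 lower. Without CuNZ@Gel replicate 1, Nav2 had 5 lower.

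At Pde4d, chr13:109311850-109312185 held 0.350 and 0.805 RPM in Gel and 5.94 and 4.44 in CuNZ@Gel (1.98 ± 0.28, limma adjusted p = 7.13e-08). In the same gene chr13:109396798-109399289, its strongest region, held 57.3 and 58.3 RPM in Gel and 30.6 and 32.7 in CuNZ@Gel (-0.85 ± 0.09, limma adjusted p = 1.58e-10). The Pde4d sum held 410 and 416 RPM in Gel and 398 and 416 in CuNZ@Gel, so the groups met and the change did not pass the test (-0.021 ± 0.035, limma adjusted p = 0.641). Removing the trend put that sum at 0.090 (limma adjusted p = 0.0342).

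At Foxp1, chr6:99468168-99468393 held 2.16 and 3.90 RPM in Gel and 7.40 and 8.71 in CuNZ@Gel (1.199 ± 0.22, limma adjusted p = 1.47e-05), and on the background scale its change was 0.33 (limma adjusted p = 0.27). The largest fall there, at chr6:99335822-99337179, was from 11.7 and 12.6 RPM to 4.61 and 5.95 (-1.08 ± 0.18, limma adjusted p = 2.57e-06). At Nav2, chr7:48862714-48863284 held 3.21 and 3.10 RPM in Gel and 16.9 and 14.2 in CuNZ@Gel (1.99 ± 0.19, limma adjusted p = 1.44e-12). The Nav2 fall at chr7:49047228-49048079, from 82.2 and 86.7 to 49.8 and 52.0 RPM (-0.72 ± 0.08, limma adjusted p = 1.70e-10), did not pass with the trend removed (-0.12, limma adjusted p = 0.285).

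At Tns3, chr11:8459714-8460000 rose from 1.63 and 1.11 to 6.06 and 5.51 RPM (1.52 ± 0.25, limma adjusted p = 1.77e-06). Its fall at chr11:8516394-8517392, from 43.3 and 42.9 to 27.9 and 30.8 RPM (-0.54 ± 0.10, limma adjusted p = 1.72e-05), did not pass with the trend removed (-0.14, limma adjusted p = 0.326). At Dock10, chr1:80580568-80581154 rose from 3.38 and 3.10 to 10.3 and 9.69 RPM (1.38 ± 0.20, limma adjusted p = 1.46e-07), but did not pass on the background scale (0.48, limma adjusted p = 0.101). The Dock10 fall at chr1:80637247-80638375 was from 40.6 and 43.0 to 19.5 and 28.1 RPM (-0.81 ± 0.12, limma adjusted p = 1.22e-07).

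Of the other genes with many regions, Elmo1 had 8 lower and 2 higher of 34, and its sum fell from 513 and 518 to 398 and 409 RPM (-0.35 ± 0.03, limma adjusted p = 2.12e-08). The Elmo1 sum was -0.041 after removing the trend (limma adjusted p = 0.304). Septin9 had 11 higher and 5 lower of 32, Pid1 6 and 4 of 31, and Vav3 5 and 3 of 31. The sums of Pid1 (-0.064, limma adjusted p = 0.156) and Vav3 (-0.0057, limma adjusted p = 0.924) did not pass the test. Both passed as higher with the trend removed (Pid1 0.20, limma adjusted p = 5.26e-05; Vav3 0.29, limma adjusted p = 3.41e-06), and Pid1 passed as lower without CuNZ@Gel replicate 2 (-0.10, limma adjusted p = 0.0369). Without Gel replicate 2, Septin9 had 7 higher and 2 lower, Pid1 2 lower and Vav3 1 lower. Without Gel replicate 1 Septin9 had 3 lower. Without CuNZ@Gel replicate 1 Elmo1 had 1 higher and Vav3 1 lower, without Gel replicate 1 Elmo1 had 1 higher, and without CuNZ@Gel replicate 2 Vav3 had 5 lower.

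Over all 77 genes, 17 were called higher and 39 lower, against backgrounds of 20.5% and 36.1% of 25900 genes (56.7% in either direction), and the median change was -0.11, against -0.10 over all genes. With the trend removed 43 were higher and 13 lower (backgrounds 20.7% and 15.4%), and on the background scale 0 were higher and 75 lower (2.77% and 75.5%, 78.3% in either direction). A sum gives strong regions more weight than a count of regions does.

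Regions called alike stood in runs along some loci, counting tested neighbours of the same gene. The longest were 8 regions called higher in a row at Ank (chr15:27330455-27391509, 61.1 kb, median change 1.30) and at Xylt1 (chr7:117116099-117167828, 51.7 kb, median 1.09). In each, 7 of the 8 were called higher with the trend removed. At Otulinl, 7 regions in a row were lower (chr15:27659749-27688728, 29.0 kb, median -0.56), of which 4 held with the trend removed. At Sgms1, 6 in a row were lower (chr19:32201132-32249396, 48.3 kb, median -0.64), of which 5 held. Ank and Otulinl are near neighbours on chromosome 15, 168 kb apart with 20 regions of 3 other genes between them, and had 10 higher and 1 lower against 2 higher and 10 lower. The contrast depended on the scale. With the trend removed Ank had 10 higher and 0 lower and Otulinl 4 and 6. On the background scale both were mostly lower, with 1 higher and 7 lower at Ank and 1 and 15 at Otulinl. Jmjd1c and Arid5b, a DNA-binding ARID-family protein, lay 849 kb apart on chromosome 10 and each had 1 higher and 7 lower. Mitf and Foxp1, 830 kb apart on chromosome 6, had 14 higher and 5 lower, and 14 higher and 10 lower.

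**Figure D5:**
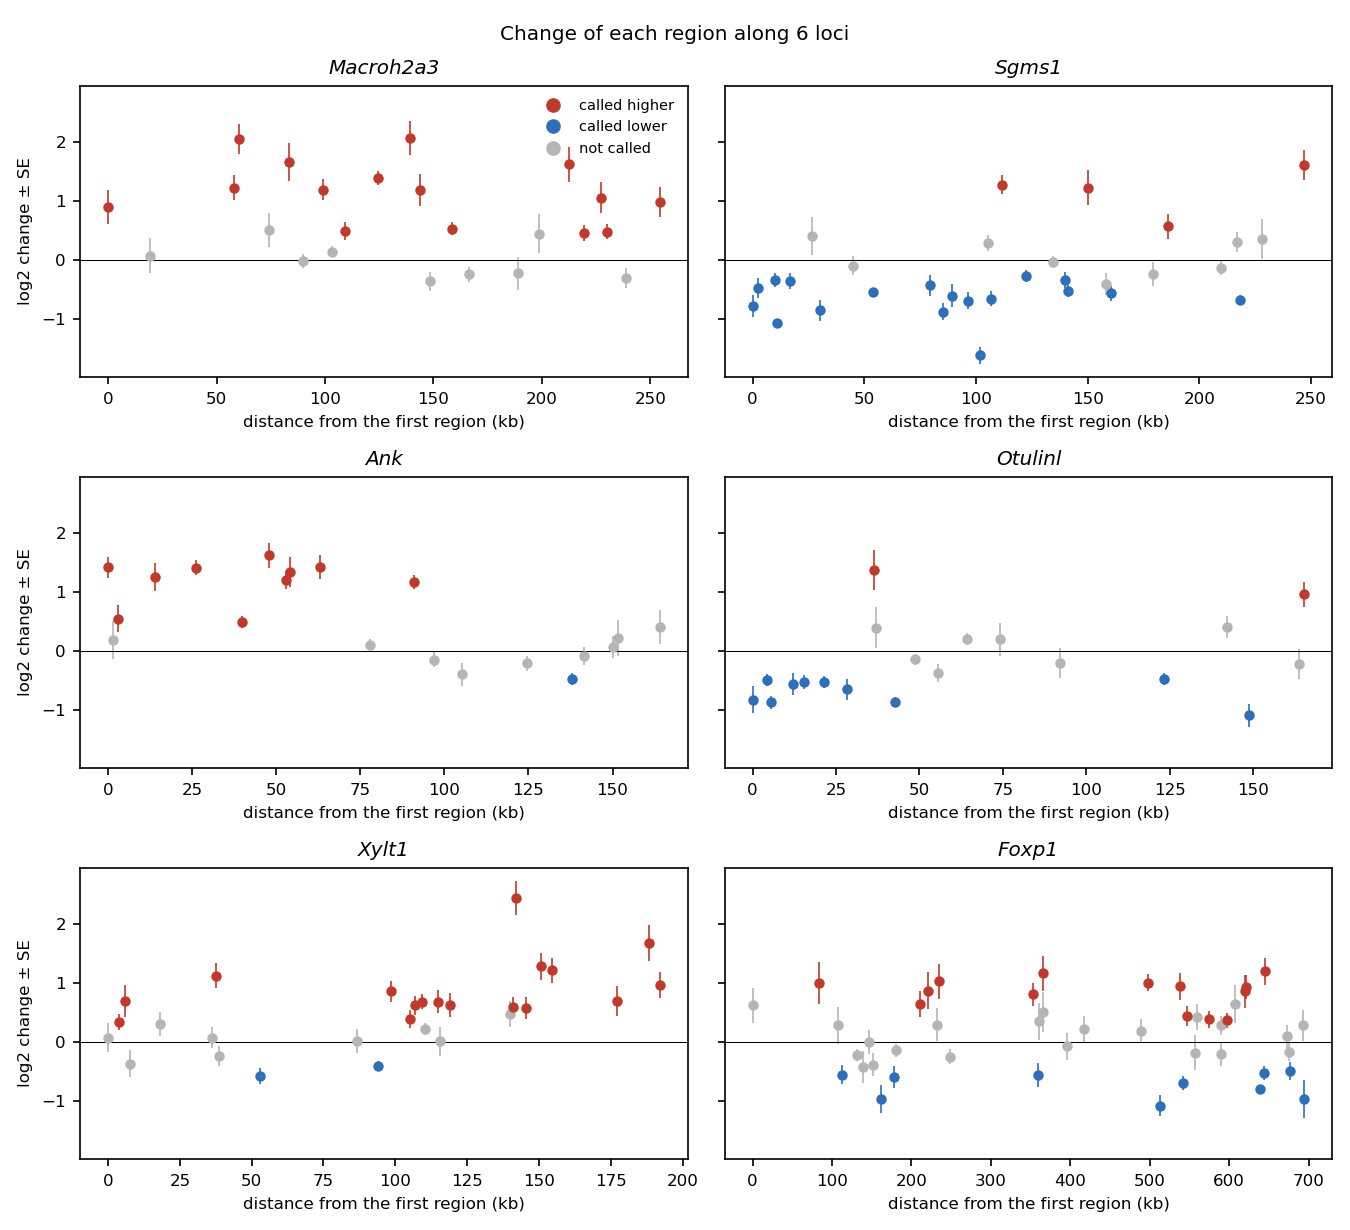
Log2 change ± SE of each tested region (vertical axis) by its distance in kb from the first region of the gene (horizontal axis) at 6 loci, red called higher, blue called lower, grey not called. Macroh2a3 has no blue point, the first part of Ank is mostly red and that of Otulinl mostly blue, and red and blue alternate along Foxp1.

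By role, class counts are read against 21.2% higher and 21.9% lower over all regions on the deposited scale, 18.8% and 13.8% with the trend removed, and 4.85% and 60.6% on the background scale. Of the 77 genes, 8 were on a list of 130 genes headed transcription factors: Foxp1, Mitf, Hivep3, Maml3, Tcf4, Aff1, Arid5b and Runx1. Their 207 tested regions had 53 higher (25.6%) and 52 lower (25.1%), and all 8 genes held both directions. Maml3, which is a coactivator, gave 5 higher and 8 lower of 20 to these counts. Hivep3, a zinc finger protein, had 8 higher and 4 lower of 30, and 5 higher without Gel replicate 2. Runx1, a factor of blood cell development, had 5 higher and 7 lower of 20. The chromatin list gave 15 higher (20%) and 11 lower (14.7%) of 75 regions in 3 genes, of which Mbnl1 is better known as a splicing regulator. The lists were not complete, and class counts cover listed genes only. Jmjd1c (1 higher and 7 lower of 20), Chd9 (4 and 6 of 19) and Macroh2a3 (15 and 0 of 24) were on no list. Hdac9, a histone deacetylase, had 4 higher and 3 lower of 28, Smyd3, a methyltransferase, 5 and 1 of 24, and Mbnl1 6 and 7 of 23. Smyd3 had 3 higher without Gel replicate 2, 3 higher and 2 lower without CuNZ@Gel replicate 1, and 2 lower without CuNZ@Gel replicate 2. Mbnl1 had 3 lower without either Gel replicate.

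The 3 kinase and phosphatase-type signalling genes had 26 higher (28.9%) and 15 lower (16.7%) of 90 regions. Beside Pde4d, Camk1d, a calcium-calmodulin kinase, had 9 higher and 2 lower of 22 and Fyn, a Src-family kinase, 2 higher and 4 lower of 21. Fyn had 1 higher without Gel replicate 1, Gel replicate 2 or CuNZ@Gel replicate 1. The 9 regulators of small GTPases had 52 higher (23.7%) and 34 lower (15.5%) of 219, all 9 with both directions. The 9 cytoskeleton and adhesion genes had 77 higher (30.8%) and 35 lower (14%) of 250 regions, with a median change of 0.22. They had 83 higher (33.2%) and 14 lower (5.60%) with the trend removed, and 20 (8%) and 132 (52.8%) on the background scale. That list includes Ank, whose role is transport and which was misplaced there. Without Ank the 8 genes had 67 higher (29.1%) and 34 lower (14.8%) of 230, and 73 (31.7%) and 14 (6.09%) with the trend removed.

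The 3 metabolism and transport genes had 11 higher (18.3%) and 9 lower (15%) of 60 regions. With the trend removed they had 6 (10%) and 10 (16.7%), and on the background scale 0 and 37 (61.7%). Ext1, which extends heparan sulfate chains, had 5 higher and 2 lower of 23, and 1 and 4 with the trend removed. Lpin2, a phosphatidate phosphatase, had 4 and 4 of 19, and 4 and 2 with the trend removed. Oxr1, an oxidation resistance protein, had 2 and 3 of 18, and 1 and 4 with the trend removed. Without Gel replicate 1, Ext1 had 1 higher, Lpin2 2 higher and 2 lower, and Oxr1 1 higher. Without Gel replicate 2 or CuNZ@Gel replicate 2, Ext1 had 3 higher and Oxr1 1. Pcdh7, a protocadherin, and Dlg2, a synaptic scaffold protein, together had 19 higher (40.4%) and 3 lower (6.38%) of 47 regions, with a median change of 0.38. The counts were 15 (31.9%) and 2 (4.26%) with the trend removed, and 4 (8.51%) and 14 (29.8%) on the background scale. Pcdh7 had 12 higher and 2 lower of 26, and 1 lower when either Gel replicate or CuNZ@Gel replicate 2 was left out; Dlg2 had 7 and 1 of 21. Of 105 listed immune receptors and effectors, 0 reached 20 regions. Only 0.289% of all named genes did, so the 0 does not set this list apart. The other 40 genes, on no list, had 230 higher (25.1%) and 178 lower (19.4%) of 917 regions, and 37 of them held both directions.

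By the deposited peak lists, 802 of the 1926 regions held a peak in all 4 libraries (41.6%, against 39.6% of all regions). A peak in both Gel libraries only was held by 189 (9.81%, against 11.05% of all regions). A peak in both CuNZ@Gel libraries only was held by 52 (2.70%, against 2.28%). Of the 189, 1 was called higher and 28 lower. Of the 52, 51 were called higher and 0 lower. Peaks decide which regions exist, so these counts are a description of the regions. Of the 802 with a peak in every library, 192 were higher and 259 lower. Calls by peak set over all regions are not given here, so these counts of calls have no background.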

How the data were processed

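ATAC-seq of RAW264.7 cells gave 4 libraries, 2 titled Gel and 2 CuNZ@Gel, grouped by title. The submitters' processing notes name MACS2 2.2.8, Bowtie2 2.3.4.3, Picard 2.27.5, SAMtools 1.17, fastp 0.23.1 and the build GRCm39, without their order or settings. For every library the authors deposited 1 log2 value per region, with a nearest gene name, for 80929 regions. After reversing the logarithm, 100% of low values were whole reads within 0.1, which gave the reads in regions and library factors of 0.910 and 0.902 (Gel) and 1.108 and 1.099 (CuNZ@Gel), so these were taken to be log2(RPM + 1). The authors' deposited peak lists hold a score, a fold enrichment (a ratio) and the -log10 of p and q values per peak. They gave coordinates, since merging them with a gap of at most 1 base yielded the same 80929 regions in the same order, and the background pileup; coordinates count from 1. A set of 48 regions on unplaced scaffolds and 4 rows without a gene name got no coordinates or were left out. All 77 genes matched the RefSeq gene table, and all 1926 of their regions lay on its chromosome.

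Regions and gene sums, log2(sum of RPM + 1), were tested with limma 3.58.1 (R 4.3.3, trend, two-sided, Benjamini-Hochberg, threshold 0.05) across all 77014 regions and 25900 genes with at least 10 reads at the median depth (0.71 per 1000000) in 2 libraries, with 15 or more summed over libraries. The fit was also run on simulated data, but the outcome is not given here and is no support for the calls. The depth limits weak regions most: RPM intervals were not computed, and errors are SE over 2 libraries per group. Alternatives were cyclic loess, median-of-ratios factors, region totals, background pileup, a stricter filter (2.84 per 1000000 in all 4 libraries), no filter, a pseudocount of 0.25, voom, a replicate block and leaving out each library.

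The members and lists were chosen with earlier results of these data known. Named genes were the 8 with most regions, the 5 with the greatest share higher, the 5 with the greatest share lower, the 5 with the largest smaller count of both directions and up to 3 per role list; named regions were the largest rise or fall of the share and both-direction sets, groups not overlapping. Other genes named were chosen after their values were seen.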

Additional observations from a re-analysis of the deposited data

How the results depend on the processing

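The counts over all 77 genes stayed within 1.5 times the values given under median-of-ratios factors, no filter, a pseudocount of 0.25 and voom. Among counts for single genes, Smyd3 had 2 lower with no filter or voom and 3 with the replicate block, and Jmjd1c 3 higher with voom. Scaling moved them most. Regions called higher were 112 on the background scale and 211 under the stricter filter, which tests fewer weak regions. Regions called lower were 164 with region totals and 1097 on the background scale. The same-direction share of pairs was 61.6% with loess, 72.4% with region totals and 83.5% on the background scale. Gene sums called higher were 43, 48 and 0 on these 3 scales, and lower 13, 11 and 75. For region totals the shares of sums called over all genes are not given here. The median change of sums there was 0.17, against 0.15 over all genes. Of all 77 sums, 29 had the other sign on the background scale, 26 with loess and 29 with region totals. Other genes, such as Hivep3 (0.15 with loess) and Runx1 (0.17 with loess), are not all listed here. The lists cover only genes named for most regions, greatest share higher or lower, or both directions. Among these genes, those with the other sign on the background scale were Tns3 (-0.97), Septin9 (-0.96), Xylt1 (-0.79), Iqsec1 (-0.74), Ank (-0.64) and Macroh2a3 (-0.56). With loess they were Pde4d (0.0896), Foxp1 (0.0620), Nav2 (0.10), Vav3 (0.29), Pid1 (0.20), Mitf (0.135) and Maml3 (0.0085), and with region totals Pde4d (0.26), Foxp1 (0.16), Nav2 (0.12), Vav3 (0.28), Pid1 (0.22), Mitf (0.20) and Dock10 (0.15). The cause of these differences was not tested. Leaving out 1 library in turn gave 357 to 450 regions higher, 234 to 341 lower, 69 to 74 genes with both directions, a pair share of 56.8% to 59.4%, 12 to 18 sums higher and 31 to 40 lower. Of the 20 named regions, 18 kept their call with loess and 18 on the background scale, and all 20 did when each library was left out; 10 passed the stricter filter and kept theirs.

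Same-numbered libraries did not deviate together over regions (correlation 0.0163). With 2 libraries per group this cannot tell whether same-numbered samples were prepared together. With the replicate block 496 regions were higher and 354 lower, 74 genes held both directions, the pair share was 57.8%, and 19 sums were higher and 40 lower. The Mitf sum passed with the replicate block (-0.087, limma adjusted p = 0.0430) and with voom (limma adjusted p = 0.0424).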

Other observations

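Genes with regions called higher only, beside Macroh2a3, were named after their values were seen. Utrn, which encodes utrophin, a link between actin and the membrane, had 10 of 23 regions called higher and 0 lower. Its sum held 172 and 165 RPM in Gel and 227 and 225 in CuNZ@Gel, a change of 0.42 ± 0.05 (limma adjusted p = 2.42e-07), and was -0.63 on the background scale. Gcnt1, which branches mucin-type sugar chains, had 7 of 24 higher, and its sum went from 159 and 166 to 193 and 181 RPM (0.20 ± 0.05, limma adjusted p = 0.0021; -0.85 on the background scale). Tmem135 had 2 of 22 higher.

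Several genes had a strong region that rose against the pattern of the other strong regions. At Rin3, which acts on Rab5 GTPases, chr12:102262769-102263765 held 14.5 and 14.1 RPM in Gel and 27.2 and 32.5 in CuNZ@Gel (1.005 ± 0.13, limma adjusted p = 4.77e-09). At Lhfpl2, chr13:94132795-94134999 held 41.6 and 38.5 RPM in Gel and 72.3 and 66.8 in CuNZ@Gel (0.78 ± 0.09, limma adjusted p = 2.35e-10). At Smyd3, chr1:178873435-178874408 held 26.3 and 24.2 RPM in Gel and 45.2 and 50.8 in CuNZ@Gel (0.90 ± 0.10, limma adjusted p = 4.30e-10). After loess all 3 were called higher, but scaled to the background pileup they did not pass the test, with changes of -0.0029 at Rin3, -0.26 at Lhfpl2 and -0.13 at Smyd3 (limma adjusted p = 0.993, 0.396 and 0.678).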
